A study of Mus musculus with 24 samples.

Results

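The 10 genes described here encode chemokines and cytokines that epithelial cells can release: Ccl20, Tslp, Cxcl1, Cxcl2, Cxcl5, Cxcl16, Cx3cl1, Ccl2, Il18 and Il33. They were chosen by symbol, after Ccl20 and Tslp had been seen to rise in the cholangiocyte organoids, so the values of those 2 genes in these organoids are given as a description without a test. The other genes and all lists used below were also chosen with earlier results of these data known. Their p-values and counts do not account for that choice. All 10 were listed in each of the 3 tables of the series, which list 31053, 25876 and 20729 genes for the hepatocyte, cholangiocyte and Smart-Seq experiments.

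The 24 libraries came from livers of wild-type male BALB/c mice aged 6 to 8 weeks. The hepatocyte table holds 12 bulk mRNA libraries, 3 each of Primary hepatocytes and of hepatocyte organoids (Hep-Orgs) at passages P1, P5 and P10. The Hep-Orgs of that table were grown from EpCAM-negative cells in Matrigel in a hepatocyte medium (Hep-Med) with DAPT, which blocks Notch cleavage, and the glucocorticoid dexamethasone. The cholangiocyte table holds 9 bulk libraries of cholangiocyte organoids (Cho-Orgs), 3 each at P0, P5 and P10, grown from EpCAM+ cells in a medium with Noggin, Wnt3a and forskolin and without DAPT or dexamethasone. The Smart-Seq table holds 3 libraries of Hep-Orgs at P0, 1 for each of the shapes named round-like, intermediate and grape-like. The labels name no agent for these Smart-Seq libraries, and the study describes the shapes in Hep-Med before DAPT and dexamethasone were added to it. All values are FPKM, which divides the fragments of a gene by its length and by the depth of the library, and each table was scaled separately, so that levels in different tables are set side by side without a test.

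The libraries held 14068906 to 27160365 fragments in the hepatocyte table, about 37380000 to 39760000 in the cholangiocyte table and about 39570000 to 40290000 in the Smart-Seq table. The 3 libraries labelled primary hepatocytes did not look like their label. The bile duct keratin Krt19 was at 237 ± 6.66 FPKM (SD, n = 3) in them, against 239 to 240 FPKM in the means of the Hep-Orgs passages, and Alb, the albumin gene of hepatocytes, was at 112 ± 7.99 FPKM. By rank, pairs of libraries from different groups of that table were as alike (median Spearman rho over genes 0.9958, 54 pairs) as pairs within a group (0.9959, 12 pairs). By chi-square per gene, pairs between groups differed somewhat more, with a median of 2.55 (1.79 to 4.71) against 2.23 (1.91 to 3.2) within groups. The sum of 10 hepatocyte markers was 616 to 649 FPKM in the libraries labelled primary hepatocytes and 628 to 677 FPKM in the Hep-Orgs. That of 12 epithelial markers was 2243 to 2338 and 2326 to 2420 FPKM. In the separately scaled cholangiocyte table, the hepatocyte sum was 7226 to 8196 FPKM at P0. The doubt about the label therefore extends to the Hep-Orgs libraries, and which cells they hold was not tested. In the Cho-Orgs, Krt19 was at 1045 ± 83.5 FPKM at P0 and 1402 ± 16.9 FPKM at P10 (SD, n = 3), while Alb went from 4994 ± 406 FPKM at P0 to 0.584 ± 0.0579 FPKM at P10.

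Chemokines are small secreted proteins that draw leukocytes along a gradient to the cell that makes them. In the liver, the cells lining the bile ducts release them together with the cytokines of the interleukin families when bacteria, toxins or injury reach the epithelium. The 10 genes fall into 5 groups by the cells they call: Ccl20 for Ccr6-bearing T cells and dendritic cells, the CXC chemokines Cxcl1, Cxcl2 and Cxcl5 for neutrophils, Ccl2 for monocytes, the transmembrane chemokines Cxcl16 and Cx3cl1 for lymphocytes and patrolling monocytes, and the alarm cytokines Tslp, Il33 and Il18, which act on dendritic cells and innate lymphocytes.

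Over the passages of the Cho-Orgs, Cxcl1, Cxcl2, Cxcl5, Cxcl16, Cx3cl1 and Ccl2 had their highest mean at P10, and Il33 and Il18 their lowest. Ccl20 and Tslp were also highest at P10, which is the rise they were chosen for. The sum of the 10 levels was 175 to 192 FPKM in the libraries at P0, 260 to 273 FPKM at P5 and 726 to 769 FPKM at P10. This sum includes Ccl20 and Tslp, which chose the list, and is a description. The mean of Ccl20 alone went from 8.03 FPKM at P0 to 367 FPKM at P10. Il33 held the highest level of the 10 genes at P0 and P5, and Ccl20 at P10. The plot of the 9 Cho-Orgs libraries shows these paths gene by gene.

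**Figure D1:**
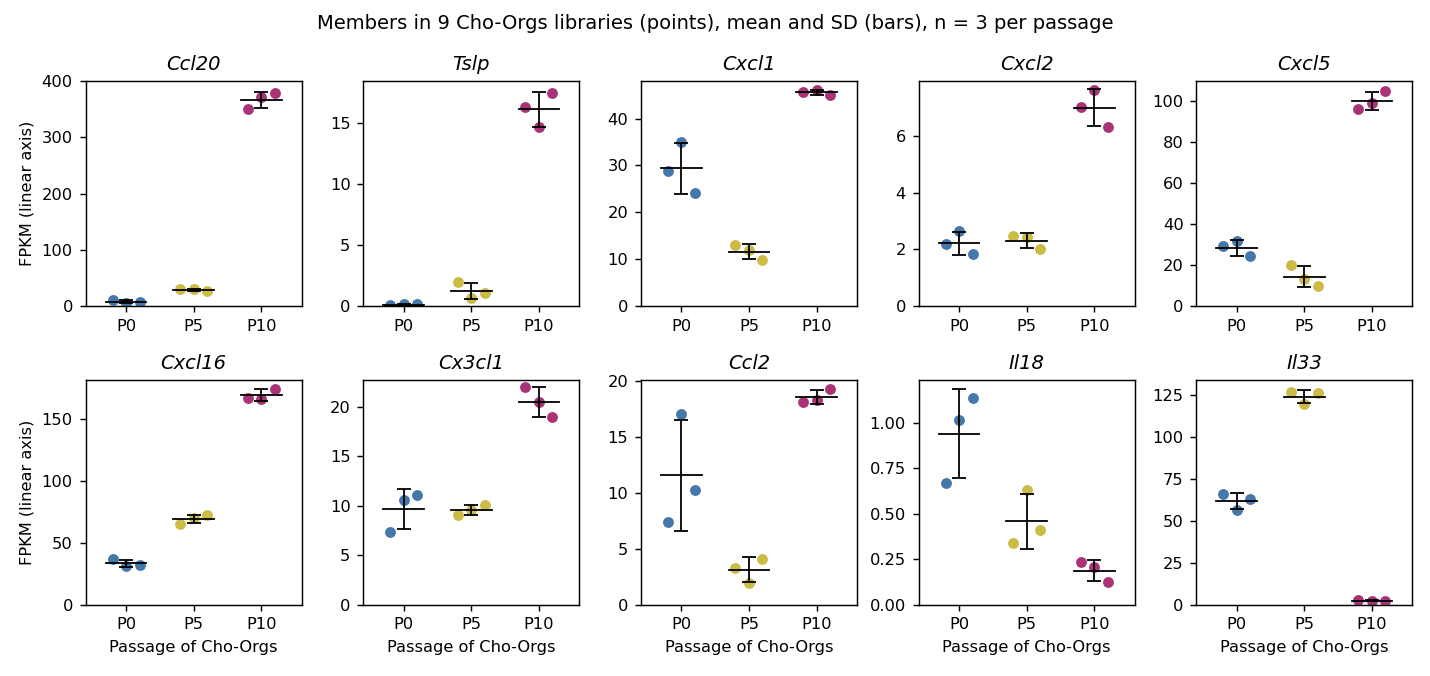
FPKM of each of the 10 genes in the 9 Cho-Orgs libraries (points, linear axes that start at 0), with the mean and SD of 3 libraries per passage as bars. Ccl20 climbed from a mean of 8.03 to 367 FPKM between P0 and P10, whereas Il33 was at 124 FPKM at P5 and 2.53 FPKM at P10.

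Ccl20 encodes the ligand of the receptor CCR6. The gene lies on chromosome 1, at 83116766 to 83119167 on the plus strand of GRCm38. Its level in the P0 Cho-Orgs was 11.4, 5.65 and 7.02 FPKM, at P5 it was 30.3, 30.1 and 27.3 FPKM, and at P10 it was 350.4, 371 and 379 FPKM. The 3 passages did not overlap, and at P10 the SD of the 3 libraries was 14.6 FPKM around a mean of 367 FPKM. The ratio of means was 3.64 for P5 over P0 and 12.5 for P10 over P5, so that the second interval held the larger step. On the log2(FPKM + 1) scale the differences were 1.79 and 3.61.

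Tslp encodes thymic stromal lymphopoietin, which primes dendritic cells for type 2 responses. It lies on chromosome 18, at 32815383 to 32819799 on the plus strand in the hepatocyte table. Its level was 0.0664, 0.155 and 0.136 FPKM at P0, which is about 3 to 7 fragments per library, and 1.99, 0.648 and 1.06 FPKM at P5. At P10 it was 16.2, 14.6 and 17.4 FPKM. The passages did not overlap, and the SD of the 3 libraries was 0.685 FPKM at P5 around a mean of 1.23 FPKM and 1.42 FPKM at P10 around a mean of 16.1 FPKM. From the fragments of the 3 libraries pooled, the ratio of P10 over P0 was 134 and that of P5 over P0 was 10.2. Both ratios rest on about 16 fragments at P0, so their size is imprecise, and they leave out the spread between cultures.

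The 5 genes whose levels followed Ccl20 most closely over the 9 Cho-Orgs libraries were St3gal6, Pprc1, Rai14, Eif1a and Cd2ap, with Pearson's r from 0.997 to 0.999 on the log2 scale. St3gal6, a sialyltransferase gene, was at 7.68, 15.6 and 65.3 FPKM in the means of P0, P5 and P10. These 9 points fall into 3 passages, and 76 of the 8279 genes compared had an r of at least 0.99 with Ccl20 and 33 with Tslp, so the values describe a common course and not a link between genes.

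Of the 8 other genes, 7 had enough signal to be tested between passages with limma on log2(FPKM + 1), at a Benjamini-Hochberg adjusted p under 0.05 over 11593 genes; Il18 did not. From P0 to P5, 2 of these 7 rose and 3 fell, beside 34.0% of all tested genes that rose and 22.6% that fell. Between P5 and P10, 6 rose and 1 fell, beside 31.0% and 30.5%. Over the whole span, P0 against P10, it was again 6 and 1, beside 41.0% and 31.3%. The median log2 fold change of the 7 genes was 0.00263, 1.28 and 1.02 in the 3 comparisons, against 0.0617, 0.00552 and 0.0688 over all tested genes. With median-ratio size factors, the rise took 47.0% of the calls over all genes from P0 to P5 in place of 60.0%. Calls were common over all genes in each comparison, so the members are described below by their levels, sizes and directions rather than by their count.

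**Figure D2:**
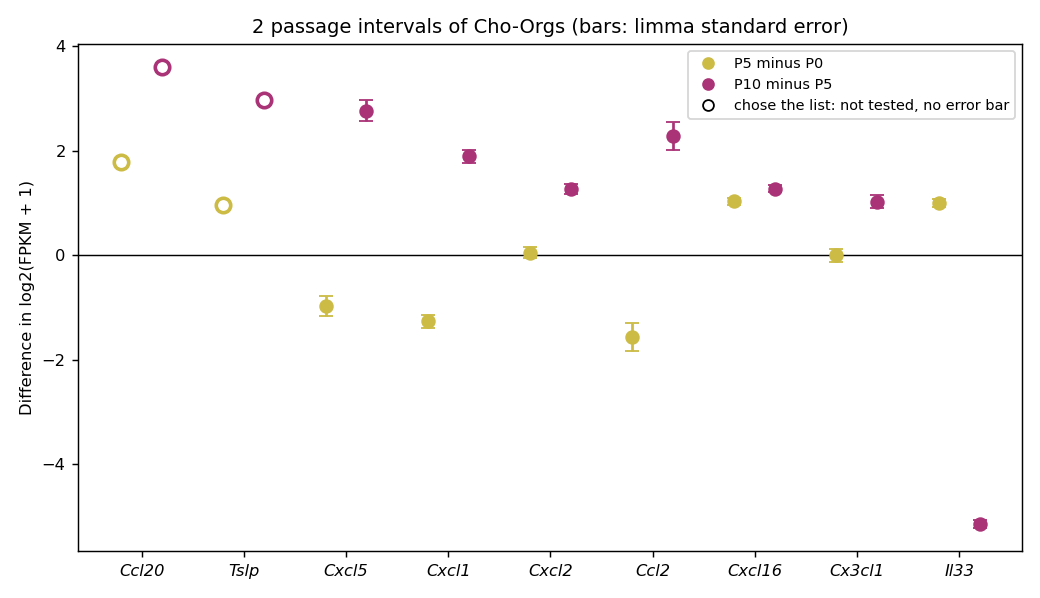
Difference in log2(FPKM + 1) from P0 to P5 (yellow) and from P5 to P10 (purple) in Cho-Orgs, with the limma standard error as bars; open points mark Ccl20 and Tslp, which chose the list and were not tested. In the second interval the tested genes had positive differences between 1.02 and 2.77, except Il33 at -5.15. Ccl20 and Tslp were at 3.61 and 2.98 there. In the first interval Cxcl1, Cxcl5 and Ccl2 lay below 0.

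The neutrophil chemokines Cxcl1, Cxcl2 and Cxcl5, all ligands of CXCR2, sit in 1 cluster on the plus strand of chromosome 5 of GRCm38. Cxcl5 lies at 90759360 to 90761624, Cxcl1 at 90891241 to 90893115 and Cxcl2 at 90903871 to 90905938, so that the starts of Cxcl1 and Cxcl2 are 12630 bases apart and those of Cxcl5 and Cxcl1 131881 bases apart. Cxcl1 was at 28.8, 35.1 and 24.2 FPKM in the P0 libraries, at 13.0, 11.9 and 9.89 FPKM at P5 and at 45.7, 46.2 and 45.1 FPKM at P10. It dipped at P5 in all 3 libraries and ended above P0 without overlap. The log2 fold change was -1.26 ± 0.125 (SE, limma adjusted p = 2.56e-05) from P0 to P5 and 1.90 ± 0.125 (adjusted p = 1.69e-06) from P5 to P10.

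Cxcl5 took the same course with a steeper return. Its level was 29.1, 31.75 and 24.3 FPKM at P0, 20.1, 13.4 and 9.80 FPKM at P5 and 96.2, 98.95 and 105.1 FPKM at P10. The log2 fold change was -0.97 ± 0.199 (SE, limma adjusted p = 0.00228) from P0 to P5 and 2.77 ± 0.199 (adjusted p = 2.9e-06) from P5 to P10, which is a ratio of means of 6.94. Cxcl2 stayed low throughout. It was at 2.18, 2.64 and 1.84 FPKM at P0 and at 2.47, 2.45 and 2.02 FPKM at P5, with overlapping libraries and a log2 fold change of 0.046 (95% interval -0.183 to 0.275, limma adjusted p = 0.722). At P10 it was at 7.02, 7.64 and 6.33 FPKM, above every earlier library, with a log2 fold change from P5 of 1.27 ± 0.102 (SE, limma adjusted p = 6e-06).

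The stretches just upstream of the starts of Cxcl1 and Cxcl2 are shown because these neighbours rose together from P5 to P10, beside those of Ccl20 and of Il33, which had the highest and the lowest difference from P5 to P10 on the log2(FPKM + 1) scale. The sequences come from RefSeq (GRCm38.p6) and run 5′ to 3′ on the plus strand from 250 to 31 bases before the start that RefSeq gives. That start is 83116766 for Ccl20, 90891245 for Cxcl1, 90903899 for Cxcl2 and 29925113 for Il33, which is 0, 4 and 28 bases after the start listed above for the first 3 and 1 base before it for Il33. RefSeq windows were found for 6 of the 10 genes. In Cxcl1 (chr5:90890995-90891214) and Cxcl2 (chr5:90903649-90903868) the capitals mark the letters GGAATTTCC, a form of the NF-κB motif. In Ccl20 (chr1:83116516-83116735) they mark overlapping matches to the looser form GGGNNNNNCC. In Il33 (chr19:29924863-29925082) neither was found. RefSeq also gives an Il33 start at 29945790, 20676 bases after the listed one. Its window, which is not shown, held neither form.
Cxcl1: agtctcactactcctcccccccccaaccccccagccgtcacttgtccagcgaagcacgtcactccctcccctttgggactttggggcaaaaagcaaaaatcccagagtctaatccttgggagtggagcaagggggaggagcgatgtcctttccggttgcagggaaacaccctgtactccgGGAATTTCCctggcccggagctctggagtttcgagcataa
Cxcl2: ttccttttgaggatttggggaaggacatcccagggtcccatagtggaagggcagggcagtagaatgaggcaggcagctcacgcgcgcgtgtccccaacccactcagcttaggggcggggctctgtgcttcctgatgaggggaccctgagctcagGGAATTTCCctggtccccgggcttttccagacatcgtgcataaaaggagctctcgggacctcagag
Ccl20: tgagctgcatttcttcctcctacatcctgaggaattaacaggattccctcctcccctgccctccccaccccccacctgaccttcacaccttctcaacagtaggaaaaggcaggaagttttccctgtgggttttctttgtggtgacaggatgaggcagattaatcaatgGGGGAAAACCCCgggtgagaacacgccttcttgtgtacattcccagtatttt
Il33: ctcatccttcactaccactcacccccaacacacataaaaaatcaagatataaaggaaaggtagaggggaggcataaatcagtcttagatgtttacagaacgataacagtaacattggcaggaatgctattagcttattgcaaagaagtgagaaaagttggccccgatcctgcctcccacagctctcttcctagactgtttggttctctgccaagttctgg

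On either strand, GGAATTTCC was present in 85 of 32851 RefSeq windows of the same 220 bases, or 0.259%, and began 70 bases before the RefSeq start in Cxcl1 and 96 bases before it in Cxcl2. The looser GGGNNNNNCC, which overlaps the first motif in both genes, was present in 41.2% of windows, with 3 matches in Ccl20, 4 in Cxcl1 and 3 in Cxcl2. The windows of Cx3cl1, Il18 and Il33 held neither (the RefSeq start of Cx3cl1 lies 171 bases after its listed start), and none of the windows of these 6 genes held the AP-1 motif TGAGTCA, which 4.01% of windows held. The other end of the messages differed as well. The heptamer TATTTAT, an element known from unstable cytokine messages, occurred 6 times in the 3′ untranslated part of the principal GENCODE M21 transcript of Cxcl1 and 7 times in that of Cxcl2. Of 21836 genes, 0.385% held at least 6 and 0.202% at least 7 copies. Ccl20, Cxcl5 and Cx3cl1 held 1 copy each, where 24.7% of genes held at least 1, and Tslp, Cxcl16, Ccl2, Il18 and Il33 held 0. A match of letters is a description and not evidence of binding or decay in these organoids.

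Ccl2, the monocyte chemokine on the plus strand of chromosome 11 (82035571 to 82037453), also dipped at P5. It was at 7.38, 17.0 and 10.2 FPKM at P0, at 3.32, 1.92 and 4.11 FPKM at P5 and at 18.1, 18.3 and 19.2 FPKM at P10. The P0 libraries were widely spread, whereas those at P10 lay close together. The log2 fold change was -1.57 ± 0.263 (SE, limma adjusted p = 0.000688) from P0 to P5 and 2.28 ± 0.263 (adjusted p = 5.73e-05) from P5 to P10. Over the whole span it was 0.71 ± 0.263 (SE, limma adjusted p = 0.0329), and this call did not hold in several settings. The log2 fold change was 0.46 (limma adjusted p = 0.104) without P0 replicate 1, and the adjusted p was 0.0818 without P0 replicate 3 and 0.068, 0.0683 and 0.0813 without P10 replicates 1, 2 and 3. It was 0.0551 with median-ratio size factors and 0.0878 when all genes above 0 were tested.

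The transmembrane chemokines Cxcl16 and Cx3cl1, which are shed from the cell surface by proteases, did not dip. Cxcl16, the ligand of CXCR6, lies on the minus strand of chromosome 11 (70453983 to 70459984). It was at 36.9, 31.4 and 32.2 FPKM at P0, at 65.6, 70.0 and 72.7 FPKM at P5 and at 167, 167 and 175 FPKM at P10, with no overlap between passages. It rose by a log2 fold change of 1.03 ± 0.0666 (SE, limma adjusted p = 1.52e-06) in the first interval and of 1.28 ± 0.0666 (adjusted p = 3.97e-07) in the second. Cx3cl1, the ligand of CX3CR1 on the plus strand of chromosome 8 (94772009 to 94782427), was at 7.40, 10.6 and 11.1 FPKM at P0 and at 9.09, 9.61 and 10.1 FPKM at P5. These libraries overlapped, with a log2 fold change of 0.0026 (95% interval -0.275 to 0.281, limma adjusted p = 0.988). At P10 Cx3cl1 was at 22.0, 20.55 and 19.0 FPKM, a log2 fold change of 1.02 ± 0.124 (SE, limma adjusted p = 7.92e-05) from P5.

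Il33 encodes an alarm cytokine that is stored in the nucleus and set free when cells die. The gene lies on the plus strand of chromosome 19 (29925114 to 29960718). Its level was 66.05, 56.6 and 62.8 FPKM at P0 and 126.5, 119.7 and 126.0 FPKM at P5, a log2 fold change of 1.00 ± 0.0753 (SE, limma adjusted p = 4.25e-06). At P10 it was 2.85, 2.24 and 2.51 FPKM, far below every earlier library. The log2 fold change from P5 to P10 was -5.15 ± 0.0753 (SE, limma adjusted p = 1.97e-10), and the mean at P5 was 49.0 times that at P10. Among the 7 tested genes, Il33 was the one that fell between P5 and P10.

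Il18, an interleukin that inflammasome caspases cut to its active form, lies on the plus strand of chromosome 9 (50554827 to 50581840) and was near the limit of these libraries. It was at 0.667, 1.01 and 1.14 FPKM at P0, at 0.337, 0.627 and 0.413 FPKM at P5 and at 0.233, 0.206 and 0.124 FPKM at P10, which is about 4 to 38 fragments per library. The passages did not overlap. Il18 did not pass the filter of 1 FPKM in 3 libraries, and when every gene above 0 was tested Il18 had a log2 fold change of -0.70 at P10 against P0 (limma adjusted p = 0.000959).

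By level at P10, the order was Ccl20, Cxcl16, Cxcl5, Cxcl1, Cx3cl1, Ccl2, Tslp, Cxcl2, Il33 and Il18, in FPKM, which is per length. Cx3cl1 (19.0 to 22.0 FPKM) and Ccl2 (18.1 to 19.2 FPKM) overlapped, and no other neighbours in that order did. At P0 the order was Il33, Cxcl16, Cxcl1, Cxcl5, Ccl2, Cx3cl1, Ccl20, Cxcl2, Il18 and Tslp. Cxcl16, Cxcl1 and Cxcl5 overlapped there, as did Ccl2, Cx3cl1 and Ccl20.

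Other cells could add to these bulk levels, and a change in the number of cells of a type cannot be told apart from a change in RNA per cell. The summed level of 10 hepatocyte markers was 7226 to 8196 FPKM in the P0 Cho-Orgs, 204 to 250 FPKM at P5 and 77.8 to 83.4 FPKM at P10, so that it fell in both intervals and most in the first. Of these markers, 9 were called lower in the first interval and 5 in the second, beside 22.6% and 30.5% of all tested genes, and 0 were called higher. In the second interval Alb went from 79.5 to 0.584 FPKM (limma adjusted p = 1.25e-09). Of 14 macrophage markers, 3 were listed at 0 at P0 and 10 at P5 and P10, where Ptprc, Lyz2, C1qa, C1qb and C1qc were at 0. Their sum was 223 to 349.5 FPKM at P0, 197 to 199 FPKM at P5 and 258 to 264 FPKM at P10 and consisted mostly of Cd14, which was at 251 ± 2.86 FPKM at P10 (SD, n = 3). The sum of 12 stellate and mesenchymal markers was 60.8 to 75.8 FPKM at P0 and 0.225 to 0.293 FPKM at P10, and consisted mostly of Reln, at 69.2 FPKM at P0 and 0.0816 FPKM at P10. The sum of 12 lymphocyte markers was at most 2.89 FPKM, that of 8 dendritic cell markers at most 0.21 FPKM and that of 10 sinusoidal endothelial markers was highest at P5, at 14.2 to 22.9 FPKM. Of the 10 granulocyte and mast cell markers the sum was 15.1 to 29.5, 37.3 to 42.7 and 20.7 to 21.3 FPKM in the 3 passages. The sum of 12 epithelial markers was 4937 to 5480, 5761 to 5916 and 6100 to 6179 FPKM. From P5 to P10, Cd14 rose from 123 to 251 FPKM (limma adjusted p = 0.000245) and the granulocyte gene S100a9 from 2.04 to 9.11 FPKM (limma adjusted p = 6.33e-05). Of the other tested markers of the macrophage and granulocyte lists, Cd68, Kit and Ly6g fell over that interval, and Lyz2 was at 0 at both passages. Cd68 went from 74.5 to 9.53 FPKM (limma adjusted p = 1.78e-08), Kit from 6.63 to 0.918 FPKM (limma adjusted p = 2.79e-06) and Ly6g from 31.2 to 10.9 FPKM (limma adjusted p = 0.0275). Ptprc, the general leukocyte marker, was at 0 at P5 and at P10. The part of these lists in the members' levels was not tested.

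The cells that receive these signals were looked for through 17 receptors and decoy receptors of the 10 proteins. In the Cho-Orgs, 4 of them had enough signal to be tested. Ccr6, Cxcr6, Ccr2 and Ackr1 were listed at 0 in all 9 libraries, and no library held more than 0.0509 FPKM of Cxcr2, the receptor of the neutrophil chemokines, or 0.0427 FPKM of Cx3cr1. Crlf2, the TSLP-binding chain of the TSLP receptor, was at 4.74 ± 0.477 FPKM at P0 and 9.37 ± 0.723 FPKM at P10 (SD, n = 3), a log2 fold change of 0.85 (limma adjusted p = 5.76e-06), while its partner Il7r reached at most 0.0123 FPKM in any library. Il18r1, a chain of the IL-18 receptor, went from 0.429 to 1.14 FPKM (log2 fold change 0.59, limma adjusted p = 0.000229) and its partner Il18rap reached at most 0.115 FPKM. Il1rap, the co-receptor of the IL-33 receptor, fell from 1.10 to 0.181 FPKM (log2 fold change -0.83, limma adjusted p = 5.48e-06), and Il1rl1, which binds IL-33, reached at most 0.0246 FPKM. Ccrl2, an atypical receptor, rose from 1.05 to 1.97 FPKM (log2 fold change 0.55, limma adjusted p = 0.00745).

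NF-κB is the transcription factor family through which IL-1, TNF and Toll-like receptors switch on many chemokine genes. Of 24 NF-κB factors, inhibitors and targets, 23 were tested in the Cho-Orgs. In the first interval 9 rose and 6 fell, in the second 15 rose and 2 fell, and over the whole span 16 rose and 4 fell, beside the shares of all tested genes given above (34.0% and 22.6%, 31.0% and 30.5%, 41.0% and 31.3%). Their median log2 fold change was -0.0163, 0.324 and 0.375, against 0.0617, 0.00552 and 0.0688 over all tested genes. Ptgs2, the inducible cyclooxygenase, went from 0.944 ± 0.59 FPKM at P0 to 16.1 ± 0.506 FPKM at P10 (SD, n = 3; log2 fold change 3.18, limma adjusted p = 2.22e-07). Tnfaip2 went from 29.1 to 105.0 FPKM and the adhesion molecule Vcam1 from 2.07 to 5.11 FPKM. Lcn2, the siderophore-binding lipocalin and the most abundant gene of the list, fell from 6426 ± 2074 to 420 ± 9.10 FPKM (log2 fold change -3.88, limma adjusted p = 5.01e-08), Saa3 from 44.8 to 3.33 FPKM and the factor Cebpd from 12.8 to 5.54 FPKM.

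Of the 20 receptors and adaptors upstream of these genes, 19 were tested, and 10 rose and 5 fell from P0 to P10, beside 41.0% and 31.3% of all tested genes, with a median log2 fold change of 0.304. F2rl1, a protease-activated receptor, went from 19.8 ± 1.04 to 62.8 ± 0.576 FPKM (SD, n = 3; log2 fold change 1.62, limma adjusted p = 7.94e-09), Ifngr1, the most abundant, from 62.3 to 125 FPKM and Tlr4, the receptor of bacterial endotoxin, from 2.69 to 5.98 FPKM. Il13ra1 fell from 32.5 to 15.8 FPKM, the IL-1 receptor gene Il1r1 from 4.13 to 2.90 FPKM (limma adjusted p = 0.0172) and Tlr5 from 2.13 to 1.43 FPKM (limma adjusted p = 0.0282). The call of Tlr5 was lost without 3 of the 9 libraries in turn (highest adjusted p = 0.0817) and that of Il1r1 without 1 (adjusted p = 0.0525). Of 19 genes for processing proteases, pore formers and inhibitors, 14 were tested, and 6 rose and 7 fell, beside the same 41.0% and 31.3%, with a median log2 fold change of -0.242. Casp4, an inflammatory caspase, went from 10.5 ± 1.03 to 43.8 ± 1.37 FPKM (log2 fold change 1.97, limma adjusted p = 7.1e-08) and Gsdmd, the pore protein it cuts, from 39.8 to 106 FPKM. Aim2 went from 0.611 to 1.38 FPKM. Nlrp6, an inflammasome sensor, fell from 17.3 to 1.29 FPKM, Dpp4, a peptidase that trims chemokines, from 15.6 to 1.47 FPKM and Pycard, the inflammasome adaptor, from 1.84 to 0.107 FPKM.

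**Figure D3:**
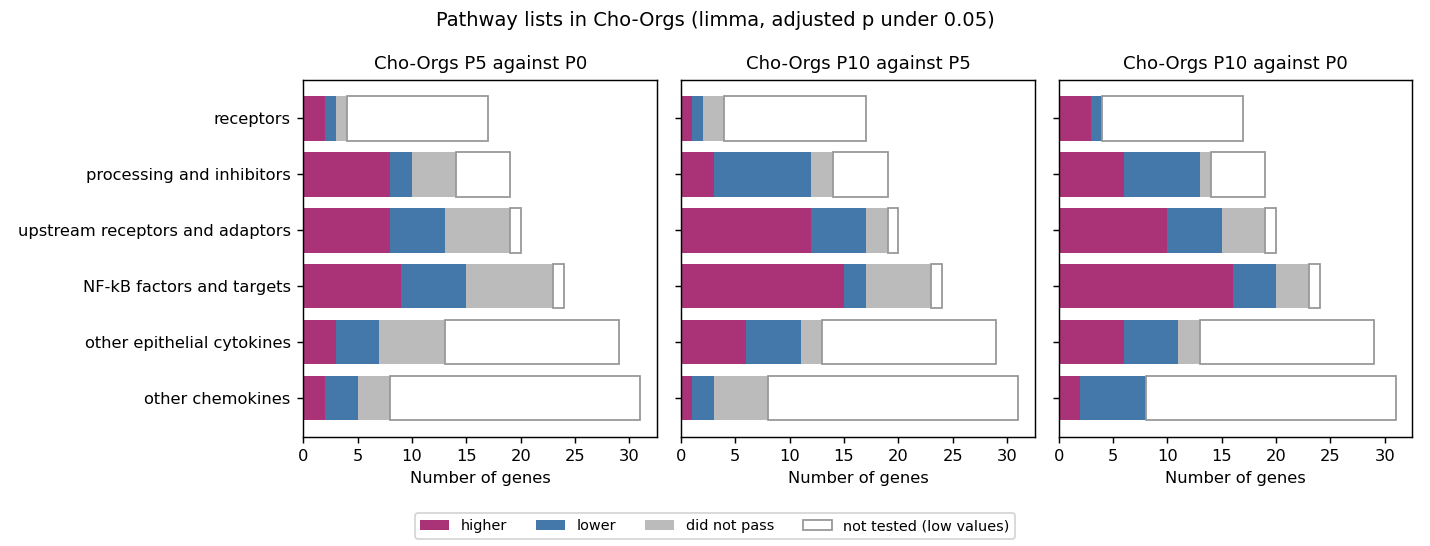
Number of genes of 6 lists that rose (purple), fell (blue), did not pass (grey) or were not tested for low values (white) in the 3 comparisons of Cho-Orgs passages (limma, adjusted p under 0.05). The NF-κB list had 15 of 23 tested genes higher and 2 lower from P5 to P10, beside 31.0% and 30.5% of all tested genes.

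Of 29 other cytokine genes that epithelia can express, 13 were tested, and 6 rose and 5 fell from P0 to P10, beside 41.0% and 31.3% of all tested genes, with a median log2 fold change of 0.199. Csf2, which encodes the growth factor GM-CSF, went from 0.157 ± 0.152 to 4.12 ± 1.23 FPKM (SD, n = 3; log2 fold change 2.12, limma adjusted p = 2.16e-06), Il1a, an alarm cytokine, from 0.0898 to 3.33 FPKM and Il34, a ligand of the CSF-1 receptor, from 2.65 to 10.4 FPKM. Spp1, the osteopontin gene and the most abundant of the list, fell from 3682 ± 837 to 527 ± 2.98 FPKM (log2 fold change -2.78, limma adjusted p = 4.66e-08), Csf3 from 7.89 to 0.698 FPKM and Il11 from 1.85 to 0.205 FPKM. Of 31 other chemokine genes, 30 were listed and 8 tested, and 2 rose and 6 fell, again beside 41.0% and 31.3%, with a median log2 fold change of -0.637. These 8 calls became 5 when P0 replicate 3, P5 replicate 1 or 2 or any P10 library was left out. Cxcl17, a chemokine of mucosal surfaces, went from 5.95 ± 4.86 to 34.6 ± 0.813 FPKM (log2 fold change 2.58, limma adjusted p = 0.000117) and Ccl25 from 1.38 to 1.70 FPKM (limma adjusted p = 0.046). Pf4 fell from 3.69 to 1.29 FPKM and Ccl6 from 1.61 to 0.0062 FPKM. Cxcl10, a target of interferon, went from 3.55 ± 3.25 to 1.00 ± 0.184 FPKM (SD, n = 3; limma adjusted p = 0.0436). Its P0 libraries were at 7.27, 1.21 and 2.19 FPKM, so that 1 library carried most of the mean, and the P0 and P10 libraries overlapped. The call of Cxcl10 was lost without 6 of the 9 libraries in turn (adjusted p up to 0.102) and that of Ccl25 without 8 of them (up to 0.171).

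Of the 10 genes, 7 were tested in the hepatocyte table (Tslp, Il18 and Il33 were too low), and 0 passed in any of the 4 comparisons, beside 0.0091% of 10986 genes for P1 and 0.0091% for P5 against the libraries labelled primary hepatocytes, 0.0% for P10 against them and 0.0% for P10 against P1. With the replicate number as a block, the 1 call over all genes at P1 and the 1 at P5 became 0. The 28 log2 fold changes lay between -0.133 and 0.155, the smallest limma adjusted p was 0.418, and their 95% intervals reached from -0.347 to 0.268. At an unadjusted limma p under 0.05, 911, 1184, 730 and 986 of all genes passed, and limma-voom on the recovered fragments called 30, 39, 0 and 29 genes, and 0 of the members.

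Ccl20 was at 2.44 to 2.92 FPKM in the 3 libraries labelled primary hepatocytes and at 2.00 to 3.01 FPKM, with a median of 2.68, in the 9 Hep-Orgs libraries. The neutrophil chemokine Cxcl5 was at 14.9 to 16.1 FPKM against 15.1 to 17.0 FPKM, Cxcl1 at 9.47 to 9.90 against 8.47 to 10.6 FPKM and Cxcl2 at 2.13 to 2.58 against 1.87 to 2.76 FPKM. Cxcl16 was at 12.5 to 12.9 against 12.2 to 15.0 FPKM, Cx3cl1 at 5.16 to 5.61 against 4.75 to 5.85 FPKM and Ccl2 at 10.4 to 11.1 against 9.02 to 12.4 FPKM. All these ranges overlapped. Passage by passage, the Cxcl16 libraries at P1 (13.7 to 15.0 FPKM) and P5 (13.5 to 14.6 FPKM) lay above the 3 labelled primary hepatocytes, as did Cxcl1 at P1 and Cxcl5 at P10, and Cxcl1 was lower at P10 than at P1. These were 2, 1, 1 and 1 of the 7 tested genes in the 4 comparisons, beside 13.5%, 15.1%, 10.9% and 16.3% of all tested genes whose groups did not overlap. Over the 12 libraries the spread of the fragment counts, as chi-square per degree of freedom, was 0.907 to 1.51 times that of counting error alone for Ccl20, Cxcl1, Cxcl2, Cxcl5, Cx3cl1 and Ccl2 and 3.0 times for Cxcl16, so that in the first 6 genes the libraries differed by little more than sampling, whatever their passage.

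Tslp was at 0 FPKM in 9 of these 12 libraries, and the other 3 held 4, 1 and 1 fragments. A count of 0 allowed up to 0.0972 to 0.148 FPKM (3 fragments) in those 9 libraries. Il33 was at 0.154 to 0.595 FPKM. Il18 was the 1 gene of the 10 in which the 3 libraries labelled primary hepatocytes lay apart from all 9 Hep-Orgs libraries. It was at 0.251, 0.481 and 0.432 FPKM in the libraries labelled primary hepatocytes and at 0.705 to 1.35 FPKM, with a median of 0.890, in the Hep-Orgs, which is 4 to 9 against 12 to 27 fragments. Of 20509 genes above 0 in some library, 0.497% had these 3 libraries below all 9 others. That share counts this direction only and includes genes too low to separate. When all genes above 0 were tested, the limma adjusted p for Il18 was 0.491, 0.212 and 0.61 at P1, P5 and P10.

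**Figure D4:**
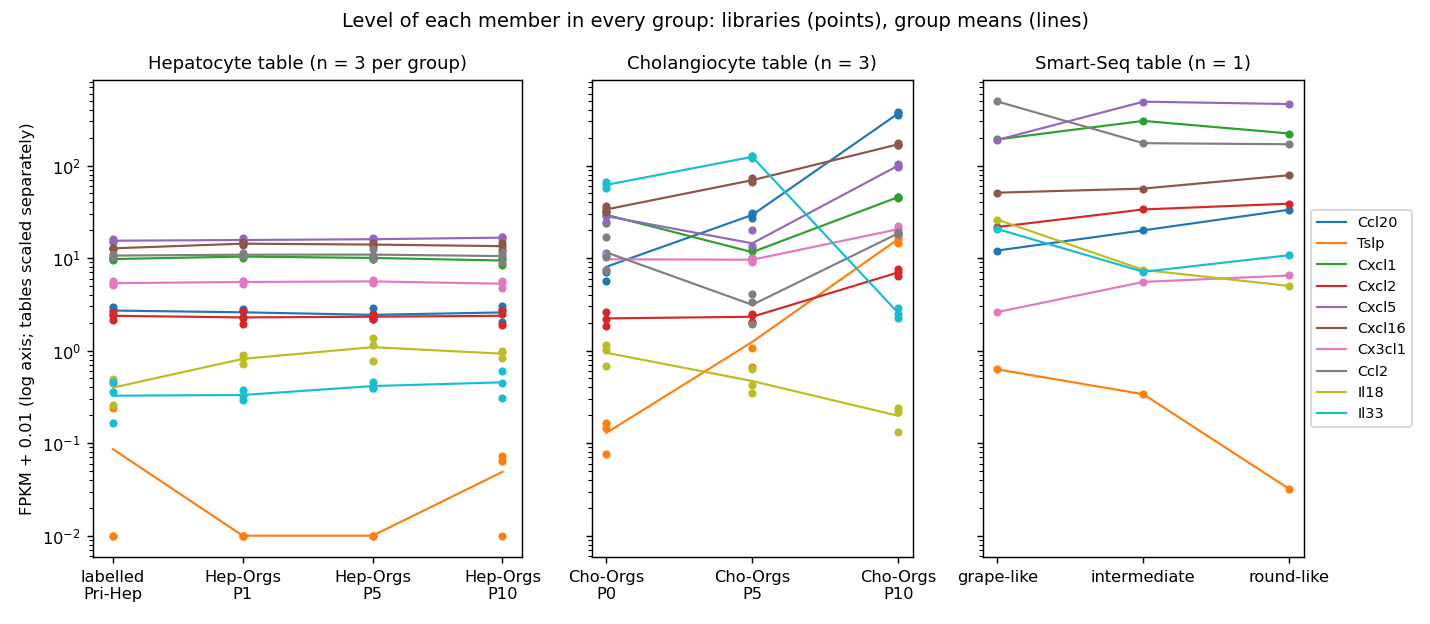
FPKM + 0.01 (log axis) of each gene in every library (points) and group mean (lines) of the hepatocyte, cholangiocyte and Smart-Seq tables, which were scaled separately. In the hepatocyte table none of the 7 tested genes was called, while Ccl20 and Tslp climb and Il33 drops at P10 in the Cho-Orgs.

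Levels in that table also depend on the gene length it lists. For Cxcl1 that is 1875 bases, the whole span of the gene with its introns, and 1.97 times the 953 bases of the principal GENCODE M21 transcript. The listed length was 1.86 times the principal transcript for Cxcl2, 1.79 times for Ccl20 and 1.4 times for Ccl2, but 1.01 to 1.2 times for the other 6 genes. FPKM of the first 4 genes is lower by that factor than it would be per principal transcript, which bears on levels between genes and tables and not on the passages within the table.

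The Smart-Seq libraries compare the shapes that Hep-Orgs take at P0, with 1 library per shape and therefore no test. Intervals below are exact, rest on approximate fragment numbers and cover counting error. Of the 9 genes at or above 1 FPKM in some library, Cxcl5 was at least 1 unit of log2(FPKM + 1) higher in the intermediate than in the grape-like library and Ccl2, Il18 and Il33 were as far lower, beside 7.15% of 12595 genes higher and 9.71% lower. In the round-like against the grape-like library, Ccl20, Cxcl5 and Cx3cl1 were higher and Ccl2 and Il18 lower by that size, beside 8.82% and 12.9%. None of the 9 differed by that size between the round-like and intermediate libraries, beside 2.54% higher and 3.85% lower.

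The level of Ccl20 was 12.05, 19.9 and 33.3 FPKM in the grape-like, then the intermediate, then the round-like library, the order kept below, with a ratio of 2.77 (95% interval 2.45 to 3.11) for round-like over grape-like. Cxcl5 was at 189, 489.8 and 462 FPKM, a ratio of 2.44 (2.39 to 2.5). Cxcl1 was at 192, 304 and 222 FPKM, with its highest value in the intermediate library. Cxcl2 was at 21.7, 33.5 and 38.7 FPKM, Cxcl16 at 50.9, 56.4 and 78.6 FPKM and Cx3cl1 at 2.60, 5.51 and 6.47 FPKM, each lowest in the grape-like library.

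The monocyte chemokine Ccl2 and the interleukins ran the other way. Ccl2 was at 492.7, 174 and 169.9 FPKM, so that the grape-like library was 2.90 times the round-like one (2.81 to 2.99). Il18 was at 26.1, 7.44 and 4.99 FPKM, 5.22 times (4.45 to 6.21), and Il33 at 20.6, 7.10 and 10.7 FPKM, 1.92 times (1.78 to 2.07). Tslp was at 0.617, 0.328 and 0.0219 FPKM, which is about 28, 15 and 1 fragments, and the grape-like library was 28.2 times the round-like one (4.70 to 1160). Markers of other cells moved with these genes. The summed level of 14 macrophage markers was 11190, 3746 and 2198 FPKM in the 3 libraries, with 14, 13 and 13 of them at or above 1 FPKM. That of 12 stellate and mesenchymal markers was 1830, 471 and 399 FPKM, and that of 10 sinusoidal endothelial markers was 168, 71.4 and 31.5 FPKM. The 8 lymphocyte markers listed there summed to 22.9, 6.33 and 4.51 FPKM and the 7 dendritic cell markers to 12.8, 4.31 and 2.39 FPKM, in the same order. The sum of 9 granulocyte and mast cell markers was 5.59, 9.75 and 1.60 FPKM and that of 10 hepatocyte markers was 6116, 10510 and 1421 FPKM, both highest in the intermediate library, as was Cxcl1. The sum of 12 epithelial markers was 475, 2357 and 2462 FPKM, the order of Ccl20, Cxcl2, Cxcl16 and Cx3cl1, while Cxcl5 was highest in the intermediate library. The part of all these lists in the members' levels was not tested.

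**Figure D5:**
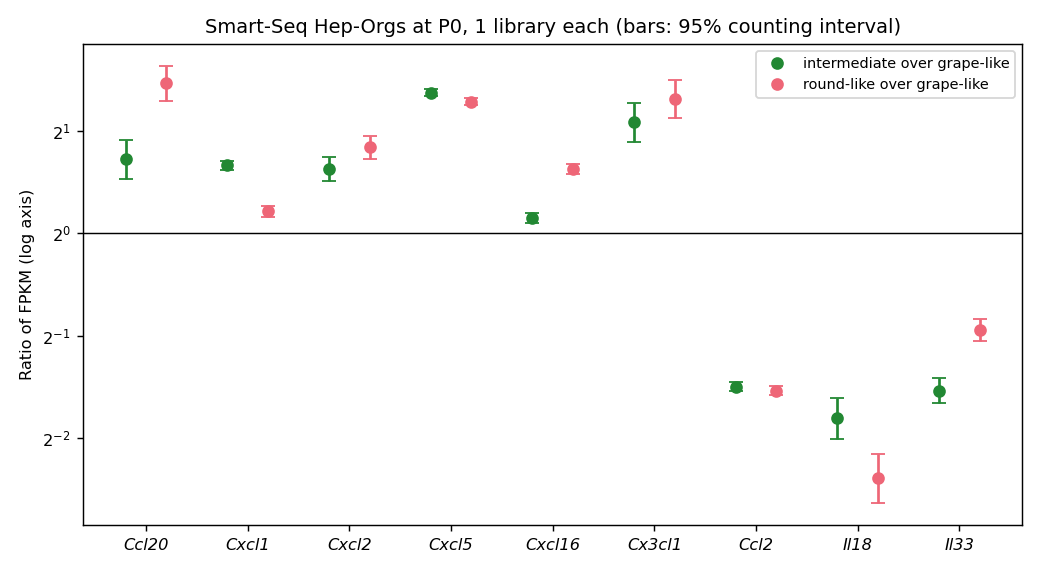
Ratio of FPKM over the grape-like library (log axis) for the intermediate (green) and round-like (red) Smart-Seq libraries of P0 Hep-Orgs, with 95% counting intervals and 1 library each. Ccl2, Il18 and Il33 lie below 1 in both, and the other 6 genes shown lie above 1.

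Side by side across the tables, Ccl20 had its highest level of the series at P10 of the Cho-Orgs, at 367 ± 14.6 FPKM (SD, n = 3), with 33.3 FPKM in the round-like Smart-Seq library and 2.57 ± 0.331 FPKM (SD, n = 12) over the hepatocyte table. Tslp was above 1 FPKM in no library outside the Cho-Orgs. Il33 was at 124 ± 3.79 FPKM at P5 of the Cho-Orgs (SD, n = 3) and reached 20.6 FPKM at most outside the Cho-Orgs. Cxcl1, Cxcl2, Cxcl5, Ccl2 and Il18 had their highest values in the Smart-Seq libraries. These libraries were amplified by another protocol, and the medium, the cells and the scaling differ between tables and cannot be told apart.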

How the data were processed

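Per the paper's methods and the submitters' processing notes, the authors counted fragments per gene with featureCounts (2.0.3) on mm10, scaled the libraries with edgeR (3.40.2) and deposited FPKM, without counts, in 3 separately made tables. The aligner and the annotation release are not given in the sources used here. Columns of each table were assigned to libraries by their labels, and the paper's legends name the replicates as mice, numbered alike in all groups. The paper's methods instead describe the replicates as independent cell cultures, so whether the numbers pair libraries by animal is not settled. Deviations of same-numbered libraries correlated with a median r of -0.00626 in the Cho-Orgs (9 pairs, -0.0741 to 0.119) and -0.00155 in the hepatocyte table (18 pairs). For libraries with different numbers it was -0.00301 (18 pairs) and -0.00183 (36 pairs). The main fit used no pairing, and a block by number was run as an alternative. The p-values measure the spread between these libraries, which for 6 members in the hepatocyte table was close to counting error.

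The tests used limma (3.58.1, R 4.3.3; two-sided, moderated with a mean trend) on log2(FPKM + 1), with all groups of a table in 1 fit, genes of at least 1 FPKM in at least 3 libraries, and Benjamini-Hochberg adjustment over all of these at 0.05. This takes the place of a count test, for which FPKM is no input; a pseudocount of 1 understates the change of low genes. In the hepatocyte table FPKM, the listed length and the depth gave whole fragments (within 0.1) for 100.0% of values; in the other tables fragments are approximate. On simulated data in which 200 genes changed by 0.5, 1 or 2 on the log2 scale, the fit recovered 88%, 100% and 100% of them in the cholangiocyte table and 95%, 100% and 100% in the hepatocyte table. Unchanged genes called were 6, 14 and 12 in the first and 13, 12 and 7 in the second. The simulation gave all genes the same small spread beside counting noise. For the cholangiocyte table it also used the same length for all genes and a lower depth than the real libraries. It changed far fewer genes than the tests called there, so the recovered shares hold for these settings only. Some genes spread more, such as Ccl2 at P0 of the Cho-Orgs (11.5 ± 4.94 FPKM, SD, n = 3), and these shares do not apply to them.

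Exact 95% intervals and the floor of 3 fragments cover counting error. In the Smart-Seq table a log2 ratio of at least 1, with the pseudocount of 1, stood in for a test. Promoters came from RefSeq and transcript ends from GENCODE M21. The 10 members and all lists (receptors, processing, upstream receptors, NF-κB, other cytokines and chemokines, and markers of 8 cell types) were chosen with earlier results of these data known. Beside the members and receptors, each pathway list is named by at most 3 genes called in each direction at P10 against P0 with the largest log2 fold change, plus its most abundant gene. The genes most like Ccl20 and Tslp were taken by Pearson's r of log2 values among genes of at least 5 FPKM in at least 3 libraries. The genes most like Tslp are not reported here by name. Alternatives were a pseudocount of 0.1, no filter, TPM, median-ratio size factors, no trend, fewer groups, a replicate block, leaving out each library and, for the hepatocyte table, limma-voom on recovered fragments.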

Additional observations from a re-analysis of the deposited data

How the results depend on the processing

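The number of members called moved little. It was 5 from P0 to P5 (5 to 6 over the alternatives, 5 with any 1 library left out), 7 from P5 to P10 (7 to 8, and 7) and 7 at P10 against P0 (6 to 8, and 6 to 7), and the additional member was Il18 where it passed the filter. In the hepatocyte table it was 0 under every alternative run, limma-voom included, although over all genes limma-voom called 30, 39, 0 and 29 genes in place of 1, 1, 0 and 0. In the Cho-Orgs none of the 7 tested members changed direction in a called comparison. The 1 call lost was that of Ccl2 at P10 against P0, whose adjusted p ranged from 0.00162 to 0.104. Of the 28 differences in the hepatocyte table, all uncalled, 15 changed sign under some alternative. The Smart-Seq counts past a log2 ratio of 1 were 4 (4 to 5), 5 (4 to 5) and 0 (0). The causes were not tested.

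With the replicate number as a block, 5, 7 and 7 members were called in the Cho-Orgs and 0 in the hepatocyte table, and the limma adjusted p of Ccl2 at P10 against P0 was 0.0468. Apart from the all-gene calls of the hepatocyte table given above, the block changed no call of a member or, at P10 against P0, of a named gene of the other lists. Depth limited Tslp in the hepatocyte table and at P0 of the Cho-Orgs, and Il18 in both bulk tables.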
